A study of Mus musculus with 16 samples.

Results

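The 10 genes described here, Entpd1, Nt5e, Dpp4, Ada, Pnp, Adk, Ampd3, Slc29a1, Slc29a3 and Adora3, encode proteins that make, carry, sense or consume adenosine. They were chosen by name as adenosine production, uptake and breakdown genes, with earlier results of these data known. Each of the 10 was measured through 1 probe set whose annotation names that gene alone, out of 18193 genes measured in the same way. The study compared hearts without the adenosine 2A receptor (A2AR) with hearts that have it, in normal mice and in mice with endotoxemia. RNA came from ventricular myocardium and was hybridised to 16 Affymetrix expression arrays, 1 array per sample.

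The 16 arrays fall into 4 groups of 4. The A2AR knockout (KO) mice given lipopolysaccharide (LPS, the endotoxin of Gram-negative bacteria) received 20 mg/kg of E. coli LPS in 1 intraperitoneal injection, and the KO saline mice received an equal volume of sterile saline. Wild-type (WT) littermates made up the WT LPS and the WT saline groups, with the same injections. All mice were male, 14 weeks old and on a CD1 background, and hearts were studied at 24 h. The knockout is the labels' genotype, from an established line kept as a sub-colony. The labels name no tissue-specific driver. No value is given here for the deleted receptor's transcript, so every genotype comparison rests on the labels. The labels number the 4 samples of a group as replicates without stating that each is a separate animal, and p-values measure only the spread between these samples.

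Extracellular adenosine is made when CD39, the product of Entpd1, trims ATP and ADP to AMP and CD73, the product of Nt5e, removes the last phosphate. Adenosine then signals through cell surface receptors or enters cells through equilibrative nucleoside transporters, where adenosine kinase returns it to AMP and adenosine deaminase turns it into inosine. In the heart adenosine is known as a local regulator that widens coronary vessels, slows conduction and restrains leukocytes.

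The label of heart muscle was borne out by cardiomyocyte markers, whose list means lay between 13.39 and 13.97 on the log2 scale in all 16 arrays. That list was lower after LPS, at 13.39 to 13.75 in KO LPS against 13.91 to 13.97 in KO saline hearts, and 13.63 to 13.78 in WT LPS against 13.88 to 13.91 in WT saline hearts. All values, list means included, are log2 RMA summaries (robust multi-array average, the deposited unit), so a difference of 1 is a 2-fold change. Levels of different genes are not compared, since each probe set has its own brightness scale. A few arrays stood apart. WT LPS array 4 had the lowest estimated array weight (0.217), and KO LPS array 2 the next (0.285), against 0.678 to 1.91 in the other 14. In WT LPS array 4 the macrophage marker list averaged 8.10, against 6.77 to 7.50 in the other 3 WT LPS arrays. Its endothelial list averaged 8.87, against 7.71 to 8.12 in the other 3. Its fibroblast list, at 10.25, lay within the 10.24 to 10.46 of WT saline hearts. Its neutrophil list, at 5.47, lay above the 3.89 to 4.05 of WT saline hearts. KO LPS array 2 had the lowest macrophage list of the 16 (6.47). WT saline arrays 1 and 4 carried skeletal muscle transcripts, with list means of 7.77 and 9.18, against 5.99 and 6.07 in the other 2 WT saline arrays.

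After LPS, 3 enzymes that break down AMP, adenosine or its products rose. The kinase that salvages adenosine fell by the probe set used. Ampd3, Ada and Pnp rose and Adk and the surface peptidase gene Dpp4 fell in both genotypes. The Adk fall is that of its brightest probe set, and none of its other 5 was called in either genotype. Entpd1 rose and Slc29a1 fell in KO hearts, and neither passed the test in WT hearts by the probe set used. For neither gene was the LPS response shown to differ between the genotypes. Nt5e, Slc29a3 and Adora3 did not pass the test in either genotype. A gene was called when its adjusted p, from limma with Benjamini-Hochberg adjustment over all 18193 genes, was under 0.05. In KO hearts 7 of the 10 genes were called, 4 higher and 3 lower, where 26.1% of all genes were called, 11.4% higher and 14.7% lower. In WT hearts 5 of the 10 were called, 3 higher and 2 lower, where 20.9% of all genes were called, 9.28% higher and 11.6% lower. Because the 10 genes were chosen with earlier results of these data known, their counts are not a test against these shares. The median log2 change of the 10 genes was 0.31 in KO hearts and 0.30 in WT hearts, and that of all genes was -0.02 in KO hearts and 0.00 in WT hearts. For 6 of the 10 genes in KO hearts all LPS arrays lay on one side of all saline arrays, which held for 28.5% of all genes. In WT hearts the same held for 5 of the 10 and for 22.8% of all genes. The LPS comparisons of the 2 genotypes share no arrays.

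**Figure D1:**
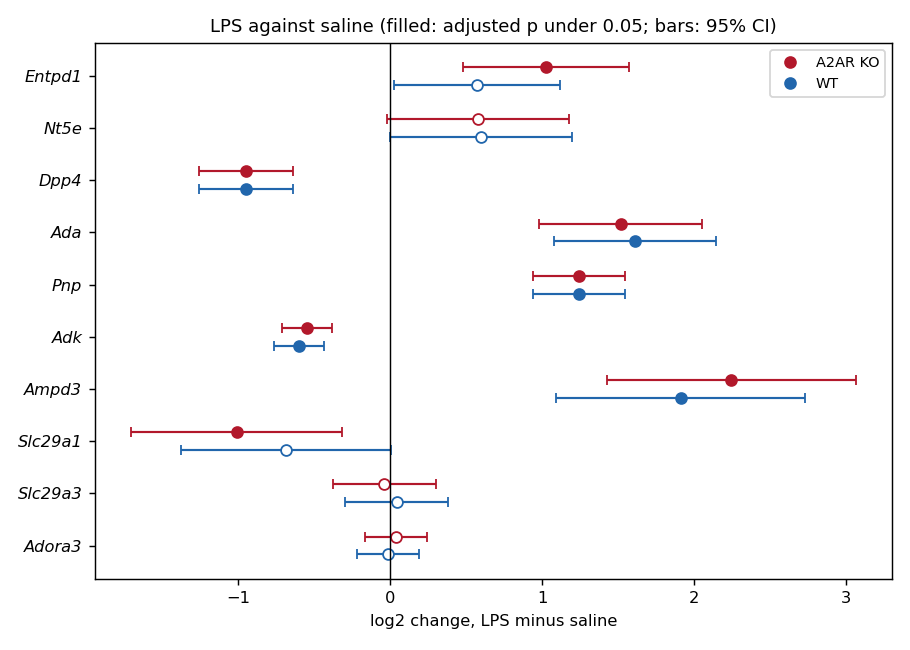
Log2 change (LPS minus saline, x axis) of the 10 genes (y axis) in KO and WT hearts, with 95% confidence intervals; filled points passed an adjusted p of 0.05. Ampd3 has the largest rise in both genotypes (2.24 in KO and 1.91 in WT hearts), and Slc29a3 and Adora3 lie close to 0.

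The promoter windows of Ampd3, Ada and Dpp4 are shown because these genes had the largest rises and the largest fall called in both genotypes. The sequences are the 250 bases before an annotated start, taken from RefSeq for the GRCm38.p6 build and written on the gene's strand. All 10 genes matched that promoter table, with 21 annotated starts among them. Capitals mark the motif matches, read on both strands.
Ada, chr2:163750240-163750489, minus strand: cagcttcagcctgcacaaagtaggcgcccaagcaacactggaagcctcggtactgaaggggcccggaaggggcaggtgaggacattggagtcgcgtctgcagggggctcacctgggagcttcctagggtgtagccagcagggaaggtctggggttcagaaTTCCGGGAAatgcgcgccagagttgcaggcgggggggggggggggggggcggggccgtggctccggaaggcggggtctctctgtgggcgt
Ampd3, second of its annotated starts, chr7:110772354-110772603, plus strand: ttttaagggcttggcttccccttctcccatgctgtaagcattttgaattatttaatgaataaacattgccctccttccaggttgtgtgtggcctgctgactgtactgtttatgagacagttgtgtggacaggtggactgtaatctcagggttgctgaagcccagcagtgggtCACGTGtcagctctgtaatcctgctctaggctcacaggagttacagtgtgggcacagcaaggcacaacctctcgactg
Dpp4, chr2:62412232-62412481, minus strand: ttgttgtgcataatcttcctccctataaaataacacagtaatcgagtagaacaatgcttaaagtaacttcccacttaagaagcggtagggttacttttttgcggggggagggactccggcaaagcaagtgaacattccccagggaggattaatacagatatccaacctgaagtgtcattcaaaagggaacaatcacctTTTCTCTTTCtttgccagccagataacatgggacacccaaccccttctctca
In Ada the capitals are a GAS match (TTCNNNGAA, the element bound by STAT factors) 90 bases before the start. It is the only GAS match among the 21 starts, and 7.02% of all 32851 promoters in the table hold one. In Ampd3 the capitals are 1 palindrome that reads as the hypoxia response core ACGTG on both strands, 78 bases before the start. That core is held by 16.6% of all promoters. Only start 2 of Ampd3 is shown, and Ampd3 starts 1 and 3 hold neither this core nor any other motif searched. The same core lies in 3 of the Slc29a1 starts, so 4 of the 21 starts hold it. In Dpp4 the capitals are a match to the ISRE core (TTTC, any 2 letters and TTTC again, from the interferon-stimulated response element) 52 bases before the start, a motif held by 2.98% of all promoters. Of the other motifs searched, the NF-kB site was in 1 of the 21 starts, in Slc29a1, and in 3.9% of all promoters. The cyclic AMP response element core TGACG was in 4 of the 21 starts, in Adk, Slc29a1 and Entpd1, and in 17.8% of all promoters. No match to any of these motifs lies in the windows of Pnp, Nt5e, Slc29a3 or Adora3. These matches describe letters in a window and are not evidence of binding.

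Ada, which deaminates adenosine to inosine, was higher after LPS in both genotypes. Its values were 5.39, 5.40, 4.88 and 4.78 in KO LPS hearts, against 3.34, 3.48, 3.60 and 3.97 in KO saline hearts. They were 5.30, 6.12, 5.93 and 4.62 in WT LPS hearts, against 3.84, 4.11, 3.74 and 3.84 in WT saline hearts. Every LPS array lay above every saline array, across both genotypes. The log2 change was 1.52 ± 0.25 (SE, adjusted p = 0.000278, limma) in KO hearts, a 2.86-fold rise. In WT hearts the log2 change was 1.61 ± 0.25 (adjusted p = 0.000204, limma), a 3.05-fold rise. The Ada probe set was dim after saline. Its saline means, 3.60 in KO and 3.88 in WT hearts, lay under the median probe set of the table (4.65). In these pieces of whole tissue, a change in the number of cells of a type and a change in RNA per cell cannot be told apart. This holds for Ada and for every gene below. The neutrophil marker list was also higher after LPS, averaging 6.05 to 6.41 in KO LPS hearts against 3.95 to 4.09 in KO saline hearts. It averaged 5.47 to 6.15 in WT LPS hearts against 3.89 to 4.05 in WT saline hearts. Between the LPS groups, mean Ada was lower in KO than in WT hearts (5.11 against 5.49), while the neutrophil list was higher (6.23 against 5.77). Of the 8 measured neutrophil markers, 5 rose in each genotype, and their part in the Ada result was not tested.

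Pnp, the purine nucleoside phosphorylase that splits inosine and guanosine into base and sugar phosphate, rose by nearly the same amount in both genotypes. Its values were 10.09, 9.98, 9.89 and 9.82 in KO LPS hearts, against 9.09, 8.48, 8.33 and 8.93 in KO saline hearts. They were 10.11, 10.18, 9.92 and 10.02 in WT LPS hearts, against 8.81, 9.004, 8.68 and 8.79 in WT saline hearts. No LPS array reached down to a saline array, and the spread was small (SD of 0.12 in KO LPS, 0.36 in KO saline, 0.11 in WT LPS and 0.14 in WT saline hearts). The log2 change was 1.24 ± 0.14 in both genotypes, a 2.36-fold rise, with adjusted p of 8.25e-06 in KO and 9.54e-06 in WT hearts (limma). A further probe set that the annotation gives to both Pnp and its near-identical copy Pnp2 was not used for the gene. That shared probe set changed by 1.29 in KO and by 1.18 in WT hearts (adjusted p = 5.17e-05 and 0.000138, limma), and signal from the copies cannot be told apart.

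Ampd3, an AMP deaminase that turns AMP into IMP and so draws AMP away from adenosine formation, showed the largest rise of the 10 genes. Its values were 10.07, 10.18, 9.88 and 9.42 in KO LPS hearts, against 7.59, 7.73, 7.60 and 7.66 in KO saline hearts. In WT LPS hearts they were 9.75, 9.98, 10.39 and 7.66, against 7.52, 7.57, 7.40 and 7.64 in WT saline hearts. All 4 KO LPS arrays and 3 of the 4 WT LPS arrays stood far above saline, while WT LPS array 4 sat at the level of the saline arrays. Ampd3 changed by 2.24 ± 0.39 (SE, adjusted p = 0.000390, limma) in KO hearts, a 4.73-fold rise. In WT hearts it was 1.91 ± 0.39 (adjusted p = 0.00182, limma), a 3.76-fold rise. Without WT LPS array 4 the WT change was 2.50, and without KO LPS array 2 the KO change was 2.14. That WT array is the one with the high macrophage and endothelial lists, and their part in its Ampd3 value was not tested. The 3 genes whose centred values over the 16 arrays lay closest to Ampd3 were Eif1a, Fmnl2 and Slc39a14, with root mean square differences of 0.19, 0.21 and 0.24. Their own log2 changes were 2.23, 2.12 and 2.44 in KO hearts and 1.88, 1.66 and 2.06 in WT hearts.

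Adk, adenosine kinase, which phosphorylates adenosine back to AMP, fell after LPS with little spread. Its values were 11.25, 11.38, 11.18 and 11.40 in KO LPS hearts, against 11.70, 11.92, 11.94 and 11.84 in KO saline hearts. The values were 11.40, 11.25, 11.34 and 11.14 in WT LPS hearts, against 11.87, 11.92, 11.87 and 11.88 in WT saline hearts. Every LPS array lay below every saline array. Adk changed by -0.55 ± 0.08 in KO hearts (SE, adjusted p = 5.95e-05, limma), a 1.46-fold fall. In WT hearts it was -0.60 ± 0.08 (adjusted p = 2.74e-05, limma), a 1.52-fold fall. The cardiomyocyte list moved the same way, with 5 of 8 markers lower in KO hearts (median log2 change -0.21) and 4 of 8 in WT hearts (median -0.15), and its part in the Adk result was not tested. The Adk call rests on the brightest of 6 probe sets. None of the other 5 was called in either genotype. The next brightest, with a mean of 9.67 over the 16 arrays, changed by -0.58 in KO and -0.40 in WT hearts (adjusted p = 0.0921 and 0.296, limma). The rest, with means of 4.73 to 6.34, ranged from -0.24 to 0.71 in KO hearts and from -0.54 to 0.13 in WT hearts. With the mean of all 6 the KO change was 0.00 (adjusted p = 0.998, limma) and the WT change -0.34 (adjusted p = 0.0238).

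**Figure D2:**
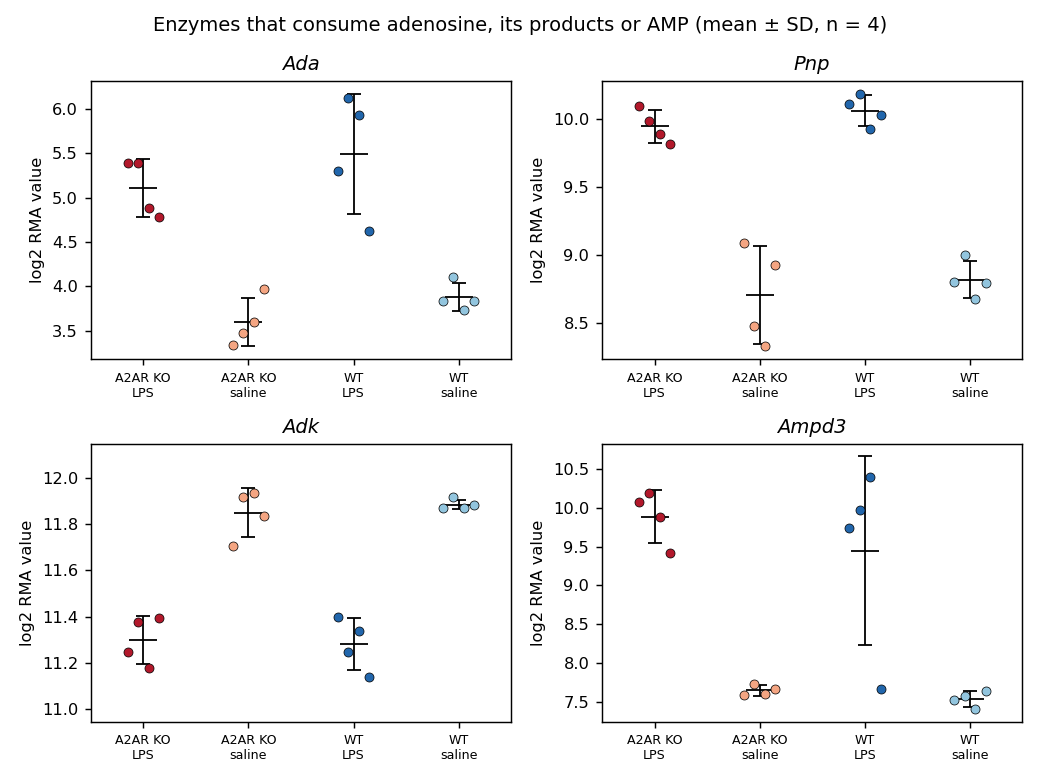
Log2 RMA values (y axis) of Ada, Pnp, Adk and Ampd3 in the 4 groups (x axis); points are single arrays, bars the mean ± SD of 4 arrays. LPS and saline arrays separate in both genotypes for Ada, Pnp and Adk, and 1 WT LPS array of Ampd3 lies at 7.66, beside the saline arrays.

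Entpd1, the CD39 ectonucleotidase, rose in KO hearts. Its values were 7.15, 7.79, 7.14 and 6.66 in KO LPS hearts, against 6.67, 6.01, 5.67 and 6.31 in KO saline hearts. In WT LPS hearts they were 7.10, 7.41, 6.98 and 6.35, against 6.58, 6.42, 6.002 and 6.57 in WT saline hearts. In each genotype 1 LPS array, number 4, lay within the saline range. Entpd1 changed by 1.02 ± 0.26 (SE, adjusted p = 0.00696, limma) in KO hearts, a 2.03-fold rise. In WT hearts it was 0.57 ± 0.26 (adjusted p = 0.141, limma). The difference between these responses, KO minus WT, was 0.45 ± 0.36 (adjusted p = 0.959, limma), so the genotypes were not shown to differ. The other 2 Entpd1 probe sets rose in both genotypes. One changed by 1.39 in KO and 1.02 in WT hearts (adjusted p = 0.000184 and 0.00300, limma), and the other by 0.94 and 0.88 (adjusted p = 0.000920 and 0.00207). Without WT LPS array 4 the WT change of the first probe set was 0.77 and passed the test (adjusted p = 0.0279, limma), and without KO LPS array 2 the KO change was 0.82 (adjusted p = 0.0255).

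Nt5e, the CD73 nucleotidase that forms adenosine from AMP, spread widely after LPS. Its values were 8.03, 8.76, 7.27 and 7.52 in KO LPS hearts, against 7.30, 7.31, 7.27 and 7.40 in KO saline hearts. In WT LPS hearts they were 7.21, 7.80, 8.66 and 7.85, against 7.45, 7.42, 7.08 and 7.19 in WT saline hearts. In each genotype 3 of the 4 LPS arrays lay above all saline arrays and 1 lay among them. The SD was 0.66 in KO LPS against 0.06 in KO saline hearts, and 0.60 in WT LPS against 0.18 in WT saline hearts. The log2 change was 0.58 ± 0.28 in KO hearts (SE, adjusted p = 0.156, limma) and 0.60 ± 0.28 in WT hearts (adjusted p = 0.164), which did not pass the test. Of the other 2 Nt5e probe sets, 1 rose in KO hearts by 0.28 (adjusted p = 0.0202, limma), and neither was called in WT hearts.

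Dpp4, the surface peptidase CD26, which in humans also anchors adenosine deaminase to the cell surface, fell by nearly the same amount in both genotypes. Its values were 4.34, 4.00, 4.03 and 4.22 in KO LPS hearts, against 5.31, 5.02, 5.29 and 4.77 in KO saline hearts. Values of 4.41, 4.36, 4.30 and 4.39 were measured in WT LPS hearts, against 5.39, 5.70, 4.96 and 5.20 in WT saline hearts. Every LPS array lay below every saline array. Dpp4 changed by -0.95 ± 0.15 in both genotypes, a 1.93-fold fall, with adjusted p of 0.000136 in KO and 0.000172 in WT hearts (limma). All 8 LPS values were under the median probe set of 4.65, so the fall ends in the dim range of the array. The 3 other Dpp4 probe sets also changed downward, by 0.38 to 0.51 in size in KO hearts, where all 3 were called, and by 0.22 to 0.60 in WT hearts, where 1 of 3 was called. The T and NK cell list, whose cells carry CD26, averaged 4.46 to 4.62 in KO LPS against 4.48 to 4.57 in KO saline hearts, and 4.46 to 4.61 in WT LPS against 4.49 to 4.62 in WT saline hearts. Of its 10 measured markers, 5 were under the median probe set in every group. Lists of other cell types were lower after LPS. Of 7 smooth muscle and pericyte markers, 6 were lower in each genotype, with median log2 changes of -1.11 in KO and -1.65 in WT hearts. Of 7 fibroblast markers, 2 were lower in each genotype, and their list averaged 8.84 to 9.88 in KO LPS against 10.20 to 10.35 in KO saline hearts, and 8.995 to 10.25 in WT LPS against 10.24 to 10.46 in WT saline hearts. Of 8 endothelial markers, 4 were lower in KO and 2 in WT hearts. The part of these lists in the Dpp4 result was not tested. The genes closest to Dpp4 over the 16 arrays were Eef1akmt1, Mboat2 and Rwdd4a, each with a root mean square difference of 0.19.

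Slc29a1, the equilibrative transporter ENT1 that moves adenosine across the plasma membrane, was lower after LPS in KO hearts. Its values were 6.91, 5.70, 7.04 and 7.30 in KO LPS hearts, against 7.52, 7.81, 8.04 and 7.63 in KO saline hearts. In WT LPS hearts they were 6.81, 7.005, 6.76 and 8.28, against 7.99, 7.92, 7.57 and 8.11 in WT saline hearts. The KO groups did not overlap, while WT LPS array 4 lay above every WT saline array and the other 3 lay below all of them. The log2 change was -1.01 ± 0.33 in KO hearts (SE, adjusted p = 0.0304, limma), a 2.02-fold fall. In WT hearts it was -0.69 ± 0.33 (adjusted p = 0.166, limma). The difference between these responses, KO minus WT, was -0.33 ± 0.46 (adjusted p = 0.966, limma), so the genotypes were not shown to differ. The LPS change moved most without WT LPS array 4 in WT hearts and without KO LPS array 2 in KO hearts. Without WT LPS array 4 the WT change was -1.04 (adjusted p = 0.00837, limma). Without KO LPS array 2 the KO change was -0.67 (adjusted p = 0.101, limma). The KO call was also lost without KO saline array 2, 3 or 4 (adjusted p = 0.0668, 0.0855 and 0.0514, limma). There the KO change itself stayed at -0.99, -0.915 and -1.05. Without WT LPS array 4 the KO change was -1.01 with a smaller adjusted p (0.00555, limma). The endothelial list was 8.87 in WT LPS array 4, above the 8.40 to 8.74 of WT saline hearts, and its part in the Slc29a1 value was not tested.

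Slc29a3, the ENT3 transporter of intracellular membranes, and Adora3, the Gi-coupled A3 adenosine receptor, did not pass the test. Slc29a3 lay between 5.78 and 6.56 in KO LPS hearts, against 6.13 to 6.33 in KO saline hearts. It lay between 5.84 and 6.51 in WT LPS hearts, against 5.95 to 6.30 in WT saline hearts. Its log2 change had a 95% interval of -0.38 to 0.30 in KO and of -0.30 to 0.38 in WT hearts. Adora3 lay between 4.62 and 4.85 in KO LPS hearts, against 4.67 to 4.85 in KO saline hearts, and between 4.77 and 4.93 in WT LPS hearts, against 4.69 to 5.13 in WT saline hearts. Its interval was -0.16 to 0.24 in KO and -0.22 to 0.19 in WT hearts, at levels close to the median probe set. Of the 8 markers of mast cells, which in mice carry this receptor, 7 were under the median probe set in the LPS groups and 8 in the saline groups.

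**Figure D3:**
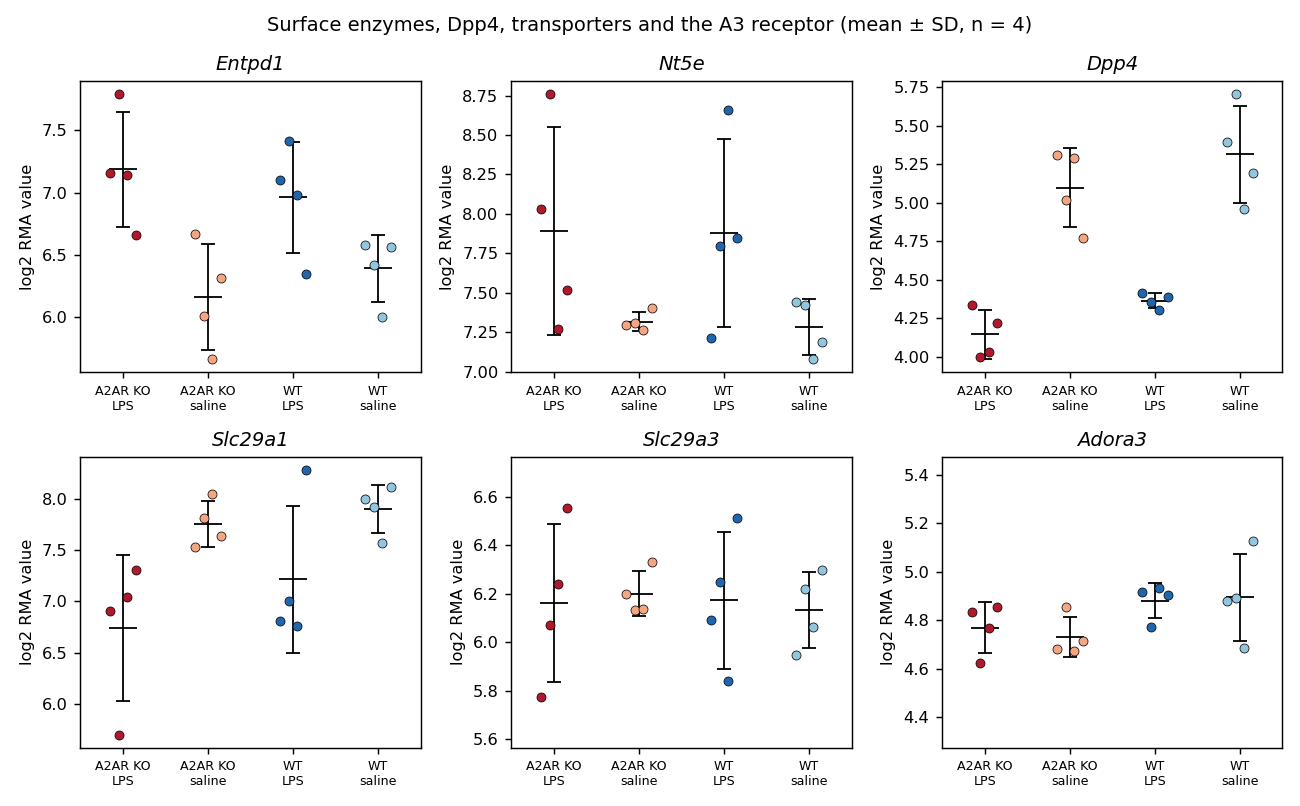
Log2 RMA values (y axis) of Entpd1, Nt5e, Dpp4, Slc29a1, Slc29a3 and Adora3 in the 4 groups (x axis); points are single arrays, bars the mean ± SD of 4 arrays. Dpp4 separates LPS from saline in both genotypes, and WT LPS array 4 of Slc29a1 lies at 8.28, above the WT saline arrays.

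**Figure D4:**
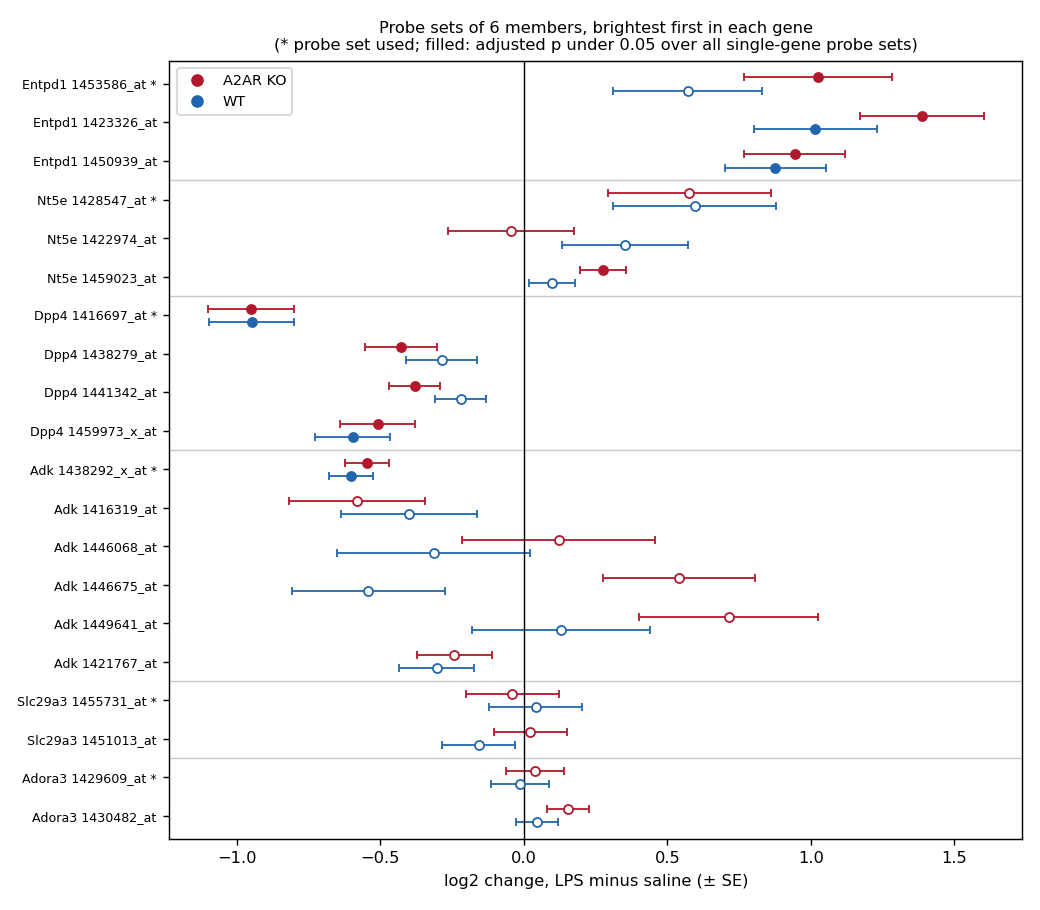
Log2 change (LPS minus saline, x axis, ± SE) of every single-gene probe set (y axis) of the 6 genes that have more than 1, in KO and WT hearts; filled points passed an adjusted p of 0.05 over all single-gene probe sets. All 3 Entpd1 sets lie above 0 and all 4 Dpp4 sets below it, while the 6 Adk sets spread to both sides of 0 in KO hearts.

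Ada, Pnp, Adk and Dpp4 had every array of both LPS groups on one side of every array of both saline groups. This holds for the probe set used for each gene, and no other Adk probe set was called after LPS. The share of all genes with such a split was not counted over both genotypes together. Within KO hearts alone it was 28.5%, and within WT hearts alone 22.8%. The split is therefore not shown to be particular to these genes. For every one of the 10 genes, the KO and WT groups of the same treatment overlapped.

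No member differed between KO and WT hearts by the test. After saline 0 of the 10 genes were called, where 1 of all genes was called (0.00550%), and after LPS 0 of 10, where again 1 was called (0.00550%). The mean KO effect over both treatments gave 0 of 10 (0.00550% of all genes), and the difference of the LPS responses gave 0 of 10 (0.00% of all genes). At an unadjusted p under 0.05 limma gave 0 of the 10 genes in each of these 4 comparisons, against 634, 1375, 937 and 813 of all genes. No member had KO and WT arrays without overlap, after saline (3.89% of all genes) or after LPS (2.26%). The estimates for KO minus WT ranged after saline from -0.29 for Ada to 0.11 for Ampd3. After LPS they ranged from -0.47 for Slc29a1 to 0.44 for Ampd3. The Ampd3 difference had a 95% interval of -0.38 to 1.26, and without WT LPS array 4 it was -0.15. Averaged over both treatments, Dpp4 differed by -0.22 (95% interval -0.44 to 0.00, unadjusted p = 0.0518 and adjusted p = 0.952, limma). Adora3 differed by -0.14 (interval -0.28 to 0.01) and Ada by -0.33 (interval -0.71 to 0.04), each with an adjusted p of 0.952 (limma). Adk was the most tightly measured, with intervals of -0.14 to 0.18 after LPS and -0.20 to 0.13 after saline. The intervals after LPS were widest for Ampd3, given above, and Slc29a1 (-1.17 to 0.22), and do not exclude a KO level 2-fold higher for Ampd3 or 2-fold lower for Slc29a1.

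**Figure D5:**
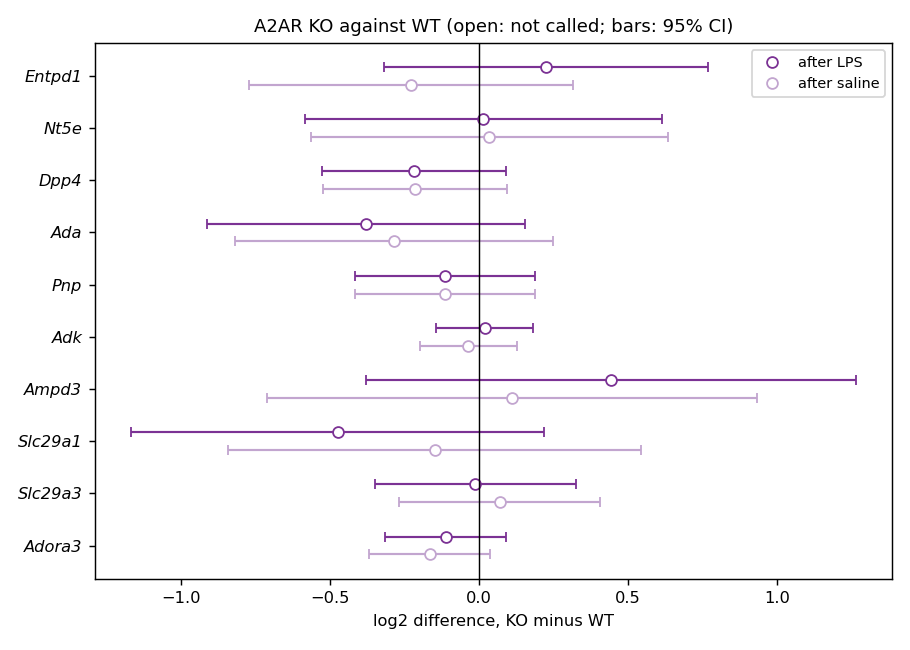
Log2 difference (KO minus WT, x axis) of the 10 genes (y axis) after LPS and after saline, with 95% confidence intervals; no gene passed an adjusted p of 0.05. Every interval includes 0, and the widest are those of Ampd3 and Slc29a1.

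Other genes of the pathway were taken from lists of 56, of which 44 were measured through a single-gene probe set. The others were not analysed here. These lists were also chosen with earlier results of these data known. In KO hearts 9 of the 44 rose and 13 fell after LPS, where 11.4% of all genes rose and 14.7% fell. In WT hearts 9 rose and 11 fell, where 9.28% of all genes rose and 11.6% fell. The median log2 change of the 44 was -0.04 in both genotypes. By limma 0 of the 44 were called between KO and WT hearts, with 4 at an unadjusted p under 0.05 after LPS (1375 of all genes), 1 after saline (634) and 0 for the mean KO effect (937). For the difference of the LPS responses 0 were called and 3 had an unadjusted p under 0.05 (813 of all genes). The largest change among the 44 was in Xdh, the xanthine oxidoreductase that turns hypoxanthine into xanthine and uric acid. Xdh averaged 10.83 in KO LPS against 8.39 in KO saline hearts, and 10.95 in WT LPS against 8.66 in WT saline hearts. Its log2 change was 2.45 ± 0.19 in KO (SE, adjusted p = 1.33e-07, limma) and 2.28 ± 0.19 in WT hearts (adjusted p = 3.06e-07). Gda, which deaminates guanine to xanthine, rose by 1.56 ± 0.13 in KO and 1.52 ± 0.13 in WT hearts (adjusted p = 3.04e-07 and 4.14e-07, limma). Of the 13 measured genes of purine salvage, synthesis and oxidation, 3 rose and 4 fell in KO hearts, and 3 rose and 2 fell in WT hearts. Ppat, the first committed enzyme of purine synthesis, changed by -1.36 ± 0.18 in KO and -0.99 ± 0.18 in WT hearts (adjusted p = 3.11e-05 and 0.000655, limma).

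Of the 15 measured intracellular AMP and adenosine enzymes, 3 rose and 5 fell in KO hearts and 2 rose and 5 fell in WT hearts. Of the 3 measured adenylate kinases, which interconvert nucleotides, Ak4 and Ak1 fell in both genotypes. Ak3 was called in neither, with changes of -0.28 in KO and -0.13 in WT hearts (adjusted p = 0.345 and 0.723, limma). Ak4, a mitochondrial member, changed by -1.32 ± 0.18 in KO and -1.57 ± 0.18 in WT hearts (adjusted p = 5.91e-05 and 1.21e-05, limma). Ak1, the cytosolic muscle form, changed by -1.31 ± 0.23 in KO and -1.27 ± 0.23 in WT hearts (adjusted p = 0.000355 and 0.000612, limma). Of the 10 measured extracellular enzymes, 2 rose and 3 fell in KO hearts and 3 rose and 2 fell in WT hearts. Enpp3, a surface nucleotide pyrophosphatase, changed by -1.39 ± 0.24 in KO and -1.51 ± 0.24 in WT hearts (adjusted p = 0.000380 and 0.000230, limma). Bst1, the ADP-ribosyl cyclase CD157, rose by 1.10 ± 0.24 in KO and 1.80 ± 0.24 in WT hearts (adjusted p = 0.00227 and 3.82e-05, limma). Of the 6 measured transport genes, 1 rose and 1 fell in KO hearts, and 1 rose and 2 fell in WT hearts. Over all genes 11.4% rose and 14.7% fell in KO hearts, and 9.28% rose and 11.6% fell in WT hearts. The counts of these small lists are not a test against those shares.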

How the data were processed

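RNA of 16 ventricular myocardium samples was measured on Affymetrix arrays. The authors deposited log2 values, 1 per probe set and array, made with RMA per the submitters' processing notes. RMA corrects background, forces equal distributions on all arrays and summarises probes. The sources used here name no RMA version or probe set definition. Of 45101 probe sets, 64 controls, 932 with several gene symbols and 9160 unnamed here were left out. The 34945 others gave 18193 genes, each through its brightest probe set over the 16 arrays. Of these 34945, 34741 had an Entrez ID in the RefSeq gene table (GRCm38.p6).

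Each gene was fitted with limma 3.58.1 in R 4.3.3 (1 mean per group, 12 residual degrees of freedom, empirical Bayes with a trend). The spread of a gene was taken as equal in all groups. The fit was checked on simulated data with independent noise of equal spread in all groups, so unequal spread was not checked. P-values were adjusted by Benjamini-Hochberg over 18193 genes. Precision is limited by the number of arrays. The 10 genes and the lists were chosen with earlier results of these data known. All 10 are named in every comparison. Of other pathway genes, the 6 with the largest called change were named in each LPS comparison. For the called members with the largest mean LPS rise and fall, the 3 genes nearest by root mean square difference of centred values were named. Most same-numbered samples did not deviate together (correlations of -0.27 to 0.33 over 16 pairs, 3 over 0.1), so no replicate block was used. The highest correlation, 0.33, was between KO LPS array 4 and WT LPS array 4. Alternatives changed the centring, array weights, probe set rule, dim genes, groups fitted and arrays included. The deleted receptor's transcript is left out.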

Additional observations from a re-analysis of the deposited data

Results flagged for a closer look

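The Slc29a1 value of WT LPS array 4, 8.28 on the log2 scale, lay far from the other 3 WT LPS arrays. The nearest of them was 7.005 and the lowest 6.76, so the gap took 0.839 of the group's whole range, above Dixon's 95% critical value for 4 samples. It was the only such value among 40 groups (10 genes in 4 groups), where chance gives about 1 in 20.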

How the results depend on the processing

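Under 26 other settings, 16 of which leave out 1 array, none of the 12 called LPS changes of the 10 genes turned its direction in 303 recomputed values. The calls lost were Adk in KO hearts with the mean of its probe sets (0.00) and Slc29a1 in KO hearts without KO saline array 2, 3 or 4 or KO LPS array 2. Entpd1 in WT hearts was called with array weights (0.70), the mean of its probe sets (0.82) and without WT LPS array 4 (0.77). Slc29a1 in WT hearts was called with array weights (-0.97) and without WT LPS array 4 (-1.04). Among the 48 values not called, 104 of 1191 recomputed values changed sign, none larger than 0.27 in size. No member was called in a genotype comparison under any setting (smallest adjusted p 0.440, limma). Leaving out 1 array gave 6 to 7 called members in KO hearts, 5 to 7 in WT hearts and 0 in each genotype comparison. Over all genes it gave 3871 to 5527 calls for LPS in KO and 3006 to 4902 in WT hearts, 1 to 5 for KO against WT after saline, 0 to 3 after LPS, 1 to 3 for the mean KO effect and 0 for the difference of responses.

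With every probe set tested there were 7611 calls for LPS in KO and 6024 in WT hearts, 2 for KO against WT after LPS and 7 for the mean KO effect. With array weights, KO against WT after saline gave 21 calls and the mean KO effect 11. Centring arrays on their medians gave 4 calls for the mean KO effect. Without dim genes KO against WT after saline gave 0 calls, and with only the 2 groups compared it gave 14, while after LPS it gave 0. An alternative chosen after seeing the data left out WT saline arrays 1 and 4, which carried skeletal muscle transcripts. It gave 2061 calls for LPS in WT hearts, and still 5 of the 10 genes. The cause of these changes was not tested. With the replicate number as a block the mean KO effect gave 2 calls, and the 10 genes kept 7 calls in KO and 5 in WT hearts. Over all genes the block gave 4487 calls for LPS in KO and 3537 in WT hearts. In 4 of the 16 same-number pairs over 4 comparisons the array correlated best with its own number.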
